A study of Homo sapiens with 6 samples.

Results

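TRIM proteins, the tripartite motif family, carry a RING finger, a B-box and a coiled coil in that order, followed in most members by a C-terminal domain that binds the target. The RING finger receives ubiquitin from an E2 enzyme and passes it to the target, which is then degraded or used as a signalling platform. Members are known for restriction of viruses, for antiviral and NF-kB signalling, for control of p53 and for silencing of chromatin. TRIML proteins are close relatives in sequence. The genes described here are those whose symbol in the platform's probe-to-gene table is TRIM or TRIML followed by a number and, where present, 1 letter. Probe sets assigned to a single gene gave 63 such genes of 18265 genes measured. Where a gene had several probe sets, the brightest on average over the 6 arrays stood for it, and the 167 probe sets of the 63 genes were also read one by one.

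Expression was measured by microarray in A549, an established human lung adenocarcinoma line. Lentiviruses carried either a negative control hairpin (shControl, 3 arrays) or a hairpin against TIGD1 (shTIGD1, 3 arrays), a gene of transposon origin. Only 1 hairpin was used against TIGD1, and the labels give no time after infection. They number the arrays of a group without saying that the arrays came from separate cultures, so the p-values reflect how far these samples vary, and that variation may be technical. The 19-base sequences that define the groups, as the submitters' protocol gives them, are printed 5′ to 3′ below.
shTIGD1: ctgctaacacaacatccat
shNC: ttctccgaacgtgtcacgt

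TIGD1 itself, the target of the hairpin, was not past the threshold in the values as deposited. The TIGD1 signal, on the log2 scale used throughout, was 6.96, 6.93 and 6.85 with the control hairpin against 6.88, 6.84 and 6.86 with the TIGD1 hairpin, and the groups overlap. The difference was -0.06 (95% interval -0.16 to 0.04, limma adjusted p = 0.389; exact permutation test, two-sided, p = 0.3, where 0.1 is the smallest value this design can give). Groups are therefore called the arrays labelled shControl and shTIGD1, and directions follow those labels. Array medians lay between 6.27 and 6.28, and the number of arrays limits the precision. All 6 epithelial markers, 4 of them keratin genes, had a mean of at least 8.07. Of 19 markers of immune, endothelial and fibroblast cells, 14 had a mean under 5, including PTPRC, which marks all leukocytes (3.22 and 3.05 in the groups), and CD14 had the highest, 8.21. Of these 19 markers, 0 were higher and 2 lower (ITGAM by 0.19 and COL3A1 by 0.56), and of the epithelial markers EPCAM (0.87) and CDH1 (0.66) rose.

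Of the 63 genes, 18 passed at a limma adjusted p under 0.05. With shTIGD1 as the label, 5 of them were higher and 13 lower. That is 28.6% of the family, where 23.8% of all genes passed, so by this count the family as a whole stood near the background. All 18 were among the 46 members with a mean of at least 5 (39.1%), where 31.8% of all genes passed. An unadjusted limma p under 0.05 was found for 32 of the 63 members (50.8%) and for 36.9% of all genes. The differences between these shares were not tested. For single directions the background was 9.79% higher and 14% lower. The median log2 change was -0.08 for the family and -0.04 for all genes, with family members between -0.84 and 0.80. A change of at least 1.2-fold together with the threshold was met by 11 members, 4 higher (TRIM2, TRIM59, TRIM45 and TRIM24) and 7 lower (TRIML2, TRIM22, TRIM67, TRIM28, TRIM21, TRIM29 and TRIM33), against 10.1% of all genes (5.01% higher and 5.05% lower). In 34 members (54.0%), among them all 18 that passed, the groups had no overlap, which held for 42.3% of all genes. In bulk RNA a lower signal from fewer cells that express a gene and one from less RNA per cell cannot be told apart.

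**Figure D1:**
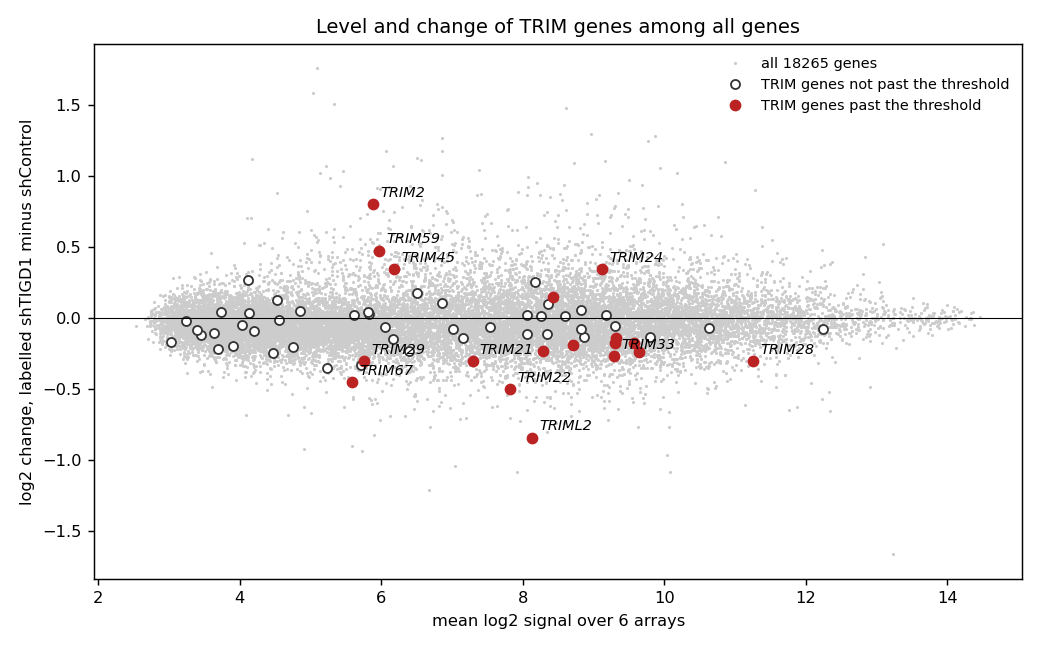
Mean log2 signal over 6 arrays (x axis) against the log2 change, arrays labelled shTIGD1 minus shControl (y axis), for all 18265 genes (grey) and the 63 TRIM and TRIML genes (circles, filled where past the threshold). TRIM2 and TRIML2 lie at the ends of the family, at 0.80 and -0.84, and no member with a mean under 5 passed; changes are as deposited, and 10 of the 18 filled points change sign when arrays are levelled on poly-A controls.

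A technical measure moved with the groups. The array carries 23 background control probe sets, named GC03 to GC25. In 22 of these 23 the mean was lower in the arrays labelled shTIGD1, and the gap grew along the series of names. The 8 controls with a mean of at least 5 (18 to 25 in the name) were lower by 0.12 to 0.23, and their groups did not overlap in any. The 15 dimmer controls differed by -0.12 to 0.00. Of the 13 falls of family members that passed, 9 were larger than the largest fall among these controls and 4 were smaller (TRIM47, TRIM4, TRIM41 and TRIM7). The part of this background in the TRIM results was not tested.

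**Figure D2:**
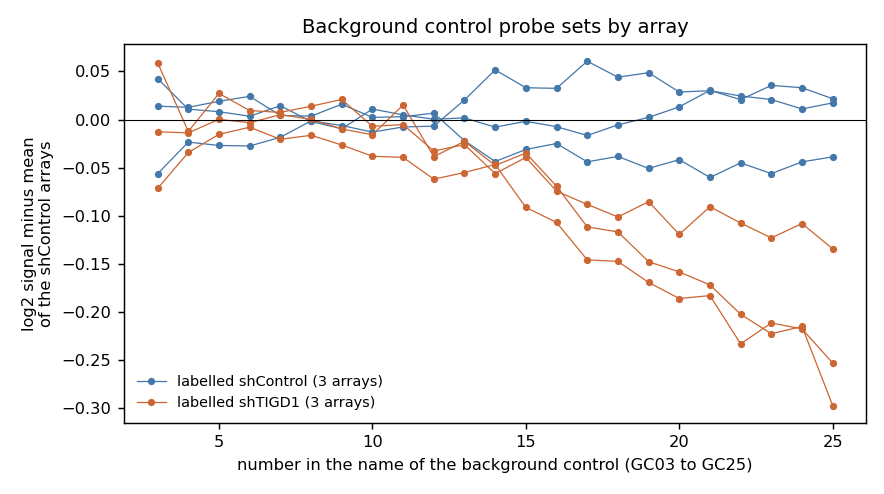
Background control probe sets, by the number in their name (x axis), as log2 signal minus the mean of the arrays labelled shControl (y axis); each line is 1 of 6 arrays. The arrays labelled shTIGD1 separate downward from about the middle of the series, to a mean difference of -0.23 at the last control.

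The direction of small falls also depended on the scaling. Levelling the arrays on the 14 hybridization control probe sets raised every change by 0.21 and levelling on the 24 poly-A control probe sets raised it by 0.33, which moved the median of all genes from -0.04 to 0.17 and 0.30. The family's calls, 5 higher and 13 lower as deposited, became 20 higher and 3 lower under hybridization control scaling and 45 higher and 2 lower under poly-A control scaling. Of all genes, 49.8% and 77.1% passed under these 2 scalings. TRIML2, TRIM22 and TRIM67 were below 0 under both scalings. TRIM28, TRIM33, TRIM21, TRIM29, TRIM37 and TRIM65 were below 0 with hybridization controls and above 0 with poly-A controls, and TRIM47, TRIM4, TRIM41 and TRIM7 were above 0 with both. Every fall named below carries this limit, while the 5 rises kept their sign. TIGD1 passed as higher under both scalings (0.15, limma adjusted p = 0.0388, and 0.28, adjusted p = 0.00227), while its adjusted p in the other alternatives lay between 0.178 and 1. All changes are given as deposited.

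**Figure D3:**
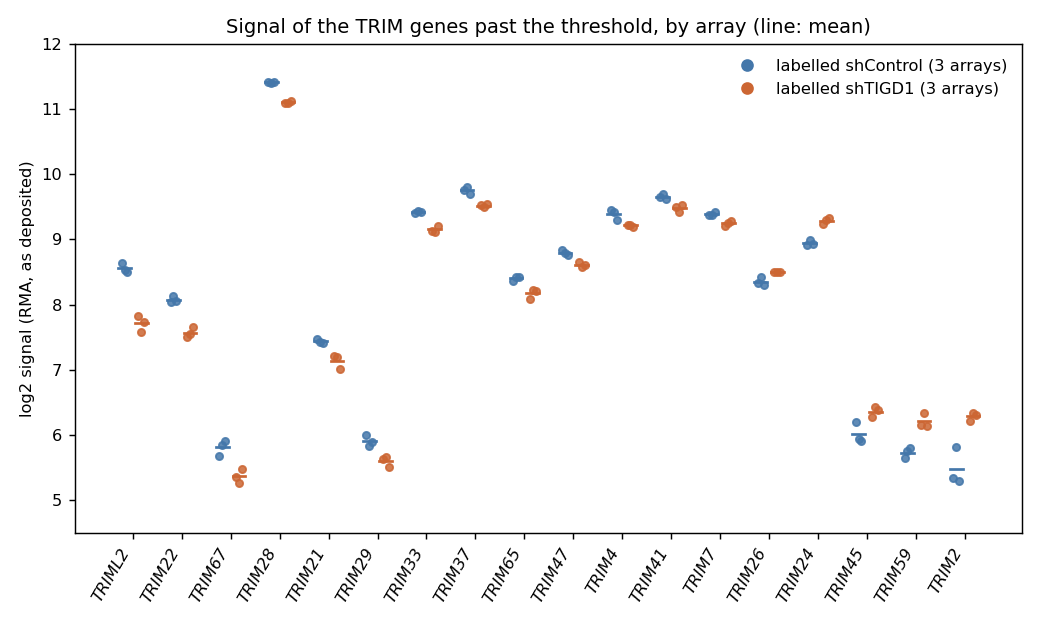
Log2 signal of the 18 TRIM and TRIML genes past the threshold (y axis, 1 probe set per gene), with 3 points per group and a line at the mean. The groups do not overlap in any of these genes, and the spread is widest for TRIM2, where 1 array labelled shControl read 5.81 and the others 5.35 and 5.29; levels of different genes are not comparable, and the falls of 10 genes turn above 0 under poly-A control scaling.

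The chromatin members, which carry a PHD finger and a bromodomain and act as transcription cofactors, went both ways. TRIM28, the corepressor KAP1 that is recruited by KRAB zinc finger proteins to silence chromatin, read 11.42, 11.40 and 11.41 on the arrays labelled shControl and 11.10, 11.10 and 11.12 on those labelled shTIGD1. Both groups were narrow and lay far apart for their spread. TRIM28 fell by 0.30 (SE 0.03, limma adjusted p = 0.00172, n = 3 each), a change that turned to 0.03 under poly-A control scaling. TRIM33, a ligase that acts on SMAD4 in TGF-beta signalling, read 9.41, 9.43 and 9.42 against 9.14, 9.12 and 9.21 and fell by 0.27 (SE 0.04, adjusted p = 0.00473). Its second brightest probe set did not follow (0.06), while the dimmest passed as lower (-0.19).

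TRIM24, a coregulator of nuclear receptors that also targets p53 for degradation, was higher. It read 8.92, 8.99 and 8.93 on the arrays labelled shControl and 9.24, 9.30 and 9.33 on those labelled shTIGD1, a rise of 0.34 (SE 0.04, limma adjusted p = 0.00277). All 3 TRIM24 probe sets passed as higher, at 0.34, 0.28 and 0.25. TRIM66, the fourth gene of the group, read 6.45, 6.47 and 6.32 against 6.51, 6.63 and 6.64 and did not pass (0.18, adjusted p = 0.0687). Among 9 partners of TRIM28 in silencing, all with a mean of at least 5, 2 rose and 2 fell, where 31.8% of all genes at that level passed. SETDB1, the histone methyltransferase of the complex, fell by 0.29 (SE 0.04, adjusted p = 0.00544) and CHD3, a remodeller that binds TRIM28, by 0.12 (SE 0.03). CBX5, which encodes heterochromatin protein HP1-alpha, rose by 0.23 (SE 0.04) and ATRX by 0.22 (SE 0.04).

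The members with filamin or NHL repeats held the largest rise of the family. TRIM2, a ligase known from neurons, read 5.35, 5.81 and 5.29 on the arrays labelled shControl and 6.22, 6.33 and 6.31 on those labelled shTIGD1. It rose 1.74-fold (log2 0.80, SE 0.14, limma adjusted p = 0.00868), and the control array at 5.81 made that group the most variable of the family. The other 2 TRIM2 probe sets passed as higher too, at 0.57 and 0.54. TRIM45, which has a filamin repeat and is known to restrain MAP kinase signalling, read 6.19, 5.94 and 5.91 against 6.27, 6.43 and 6.38, with the nearest values of the groups close together. It rose by 0.35 (SE 0.08, adjusted p = 0.0296), with a further probe set past the threshold at 0.47 and the third at 0.26. The TRIM45 call was lost in 4 of 6 fits that left out 1 array: without shControl replicate 2 or 3 and without shTIGD1 replicate 2 or 3 (adjusted p 0.0788 to 0.0929). TRIM3 (-0.23, adjusted p = 0.0601), TRIM71 (0.04) and TRIM32 (-0.13) did not pass.

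TRIM32, a ligase mutated in a limb-girdle muscular dystrophy, showed disagreement between its probe sets. Its brightest and second probe sets changed by -0.13 and -0.11 and did not pass. The dimmest read 5.29, 5.13 and 4.96 on the arrays labelled shControl and 5.49, 5.65 and 5.79 on those labelled shTIGD1, and passed as higher at 0.51 (adjusted over all probe sets, limma adjusted p = 0.0157). No direction is given for TRIM32. TRIM62 differed in a similar way. All 3 of its probe sets had means near background. The brightest (4.55) changed by -0.01, and the others (4.42 and 3.83) passed as lower at -0.44 and -0.35. TRIM13 did not pass with its brightest probe set (-0.11, adjusted p = 0.0578), and 2 of its other 4 probe sets passed as lower, at -0.26 and -0.21.

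Among members with a transmembrane segment or a MATH domain, TRIM59 and TRIM37 passed in opposite directions. TRIM59, a membrane-anchored ligase studied for growth of tumour cells, read 5.65, 5.75 and 5.80 against 6.15, 6.34 and 6.13 and rose by 0.48 (SE 0.07, limma adjusted p = 0.00482). A dimmer TRIM59 probe set changed by 0.04 and did not pass. TRIM37, a ligase that limits centrosome material, read 9.76, 9.81 and 9.70 against 9.52, 9.50 and 9.54 and fell by 0.24 (SE 0.04, adjusted p = 0.00908). The other 3 TRIM37 probe sets lay between -0.14 and 0.04 and none of them passed, so the call rests on 1 probe set.

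**Figure D4:**
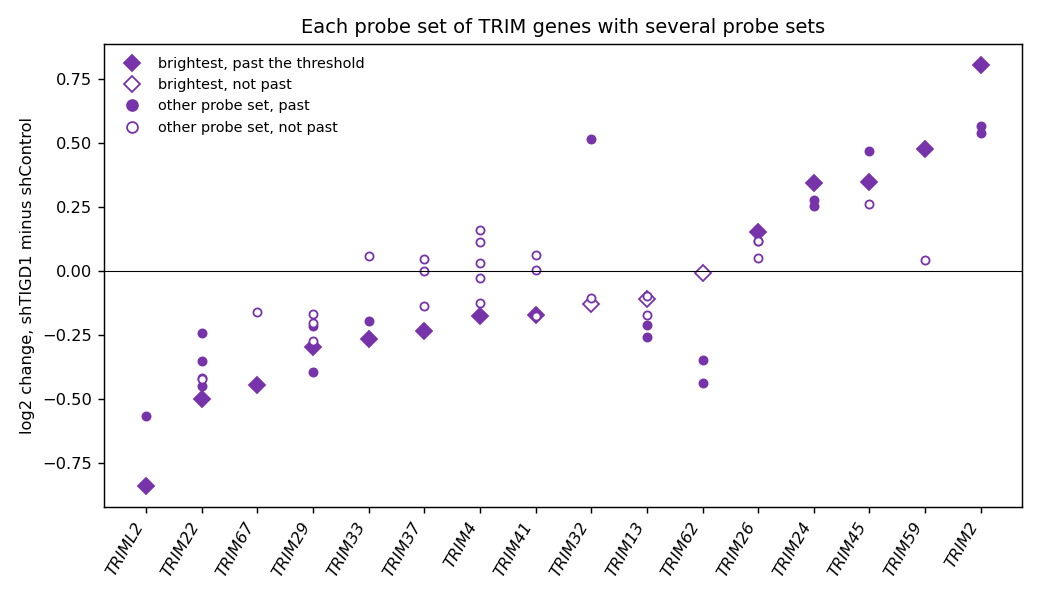
Log2 change of each probe set (y axis, arrays labelled shTIGD1 minus shControl) for the TRIM genes that have several probe sets and at least 1 past the threshold when all probe sets are tested singly. Diamonds mark the brightest probe set of a gene and filled symbols those past the threshold; TRIM22, TRIM24 and TRIM2 keep to 1 side, while TRIM32 has a filled point at 0.51 above its other 2 points. Changes are as deposited, and falls smaller than 0.33 turn above 0 under poly-A control scaling.

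The largest fall was in a member without the RING finger. TRIML2, a TRIM-like gene known as a p53 target, read 8.64, 8.53 and 8.49 on the arrays labelled shControl and 7.83, 7.58 and 7.74 on those labelled shTIGD1. The lowest control value stood above the highest value of the other group by more than the range within either. The fall was 1.79-fold (log2 -0.84, SE 0.07, limma adjusted p = 0.00111), and TRIML2 alone of the family passed in all 18 alternative fits. Its second probe set read 7.62, 7.64 and 7.44 against 7.04, 6.90 and 7.07, a change of -0.57 that also passed. TRIML1, its direct neighbour among protein-coding genes on chromosome 4, read 5.66, 5.18 and 5.39 against 5.01, 5.14 and 5.03 and did not pass (-0.35, adjusted p = 0.0801).

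TRIM29, also without a RING finger and known from squamous epithelium and the DNA damage response, fell by 0.30 (SE 0.06, limma adjusted p = 0.0173). It read 5.99, 5.82 and 5.90 against 5.64, 5.67 and 5.51. All 5 other TRIM29 probe sets were below 0, from -0.40 to -0.17, and 2 of them passed. TRIM16, TRIM44 and TRIM14, the remaining members of this kind, did not pass, with changes of -0.08, -0.07 and 0.01. TRIM16 shares probes with its near copy TRIM16L, and its signal cannot be assigned to TRIM16 with certainty. The brightest probe sets of 22 members, among them 7 of the 18 that passed, have names ending in s_at or x_at. These endings mark probes that may also bind other transcripts. The 7 are TRIM21, TRIM24, TRIM26, TRIM29, TRIM41, TRIM45 and TRIM65, and TRIM21 and TRIM65 had no other probe set.

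By a list of p53-linked members, chosen with earlier results known, 2 of 10 rose (TRIM24 and TRIM59) and 4 fell (TRIML2, TRIM22, TRIM28 and TRIM29), where 23.8% of all genes passed, and 31.8% of those with a mean of at least 5, as all 10 have. The median of the list was -0.12, against -0.04 for all genes. TRIML2 and TRIM22 are known as targets of p53, while TRIM24 and TRIM28 are known to lower p53 protein, so the list mixes opposite roles. TRIM8, which stabilizes p53, changed by 0.06 (adjusted p = 0.322) and TRIM39 by -0.06 (adjusted p = 0.592).

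The group listed for a PRY-SPRY domain, the target-binding domain of most antiviral TRIM proteins, held 32 members. Each gene was placed in 1 domain group only, so members counted in other groups may carry this domain as well. Of the 32 listed here, 1 rose and 7 fell (25% past the threshold, near the 23.8% of all genes), with a median of -0.11. TRIM22, an interferon-inducible restriction factor, read 8.04, 8.13 and 8.05 on the arrays labelled shControl and 7.50, 7.55 and 7.66 on those labelled shTIGD1, and fell 1.41-fold (log2 -0.50, SE 0.05, limma adjusted p = 0.00193). Of its 5 other probe sets, 4 passed as lower and the fifth changed by -0.42 without passing. TRIM21, a cytosolic antibody receptor and ligase, read 7.48, 7.42 and 7.42 against 7.21, 7.20 and 7.01 and fell by 0.30 (SE 0.06, adjusted p = 0.0156), a call that ended without shControl replicate 1 (-0.28, adjusted p = 0.0529). TRIM65, known to modify the RNA sensor MDA5, fell by 0.23 (SE 0.05, adjusted p = 0.0183), and its call was lost without shControl replicate 2 (adjusted p = 0.0529) or 3 (adjusted p = 0.0580).

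The smaller calls of this group were less stable. TRIM47 and TRIM4 fell by 0.18, TRIM41 by 0.17 and TRIM7 by 0.14, with limma adjusted p between 0.0194 and 0.0382, and TRIM26 rose by 0.15 (adjusted p = 0.0403). The 5 other TRIM4 probe sets lay between -0.13 and 0.16 and none of them passed. TRIM41 and TRIM7 lost their calls in every fit that left out 1 array (adjusted p 0.0521 to 0.121). TRIM4 kept its call only without shControl replicate 3 and TRIM26 only without shControl replicate 2 (adjusted p otherwise 0.0872 to 0.110). TRIM47 lost it without shControl replicate 1 and without shTIGD1 replicate 2 or 3 (adjusted p 0.0581 to 0.0640). By contrast 10 members passed in all 6 such fits: TRIML2, TRIM22, TRIM67, TRIM28, TRIM29, TRIM33, TRIM37, TRIM24, TRIM59 and TRIM2. In a single such fit 15% to 18.6% of all genes passed, and the share of all genes passing in all 6 is not given. TRIM47 and TRIM65 are direct neighbours on chromosome 17, as are TRIM7 and TRIM41 on chromosome 5. Only in these 2 of the 13 neighbouring member pairs did both genes pass, where 28.6% of members passed singly. In 8 of the 13 pairs the changes had the same sign, and a link between neighbours was not tested.

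Of 9 members known as interferon-inducible, 2 fell (TRIM22 and TRIM21), 0 rose and 7 did not pass. That is 22.2% past the threshold, near the 23.8% of all genes, with a median of -0.11 and a range of -0.50 to 0.27. By an unadjusted limma p, 6 of 9 lay under 0.05 (36.9% of all genes). On chromosome 11, TRIM5, TRIM6, which overlaps it, TRIM34 and TRIM22 follow each other among protein-coding genes. TRIM5, a retroviral restriction factor, read 7.89, 8.18 and 8.08 on the arrays labelled shControl and 8.37, 8.32 and 8.24 on those labelled shTIGD1 and did not pass (0.26, adjusted p = 0.0577), although the groups did not overlap. TRIM34 read 4.05, 4.03 and 3.87 against 4.29, 4.38 and 4.08, near background (0.27, adjusted p = 0.0736). TRIM6 changed by 0.03 (adjusted p = 0.623), with TRIM22 at -0.50 beside them. The locus therefore held values on both sides of 0, and the difference between its genes was not tested. TRIM25, the ligase that activates the RNA sensor RIG-I, read 9.92, 9.81 and 9.84 against 9.70, 9.75 and 9.73 and did not pass (-0.13, adjusted p = 0.0650).

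Promoters were searched for the letters of the interferon-stimulated response element, GAAA followed after any 2 bases by GAAA, on either strand. RefSeq promoter windows of GRCh38.p14, from 250 bases before to 50 after a start site, matched 50 of the 63 genes. The pattern was found in 5 of 9 windows of interferon-inducible members, in 4 of 60 windows of the other members and in 3.57% of all 35116 windows. The stretches of the 5 interferon-inducible members and of TRIM26 and TRIM2, which rose, are printed 5′ to 3′ on the strand of the gene. They set the letters beside genes whose values lay on both sides of 0. TRIM16 (-0.08) and TRIM44 (-0.07), which did not pass, also held the pattern and are not printed. TRIM22 was not among the genes with a match, and 8 of the 9 interferon-inducible members had a window. Capitals mark the pattern, which begins with TTTC where it lies on the other strand. The stretches of TRIM21 and TRIM26 hold a second, overlapping match, left in lower case.
TRIM21: cttctgagcgGAAACTGAAAgtgaaatagg
TRIM5: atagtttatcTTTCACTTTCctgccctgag
TRIM34: gccccaaaaaTTTCACTTTCatttctcagg
TRIM14: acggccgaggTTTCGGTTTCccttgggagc
TRIM69: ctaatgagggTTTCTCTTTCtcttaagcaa
TRIM26: tcccgcctgaTTTCAGTTTCcatttcgctg
TRIM2: aataaatagaGAAAAGGAAAtaagccgaag

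The TRIM21 stretch lies at chr11:4393666-4393695 (minus strand), with the pattern beginning 17 bases after the start site. Those of TRIM5 and TRIM34 lie at chr11:5685082-5685111 (minus strand) and chr11:5624901-5624930 (plus strand). TRIM14 is at chr9:98119229-98119258 (minus strand) and TRIM69 at chr15:44736456-44736485 (plus strand). TRIM26 is at chr6:30213581-30213610 (minus strand) and TRIM2 at chr4:153151936-153151965 (plus strand). The 5 interferon-inducible genes printed changed by -0.30 (TRIM21), 0.26 (TRIM5), 0.27 (TRIM34), 0.01 (TRIM14) and -0.24 (TRIM69), and only TRIM21 passed. A match describes the letters of a window and does not show that a factor binds there.

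The antiviral pathway on which TRIM25 and other members act had 4 falls and 0 rises among 13 genes (30.8% past the threshold against 23.8% of all genes; median 0.01). An unadjusted limma p under 0.05 was found for 6 of 13, against 36.9% of all genes. Of the 13, 12 had a mean of at least 5, where 31.8% of all genes passed and 46.7% had an unadjusted p under 0.05. IKBKE, a kinase of interferon induction, fell by 0.37 (SE 0.04, limma adjusted p = 0.00160), and the adaptor MAVS by 0.30 (SE 0.04, adjusted p = 0.00315). TRAF3 fell by 0.22 and the transcription factor IRF3 by 0.15. The RNA sensor gene RIGI changed by 0.09 and did not pass. Of 16 listed E1 and E2 enzymes, which load RING ligases with ubiquitin, 11 were measured by probe sets assigned to a single gene. UBE2D1, UBE2D2, UBE2D3, UBE2W and UBE2L3 were not. Of the 11, 2 fell and 0 rose (18.2% past the threshold against 23.8% of all genes), with a median of -0.01. All 11 had a mean of at least 5, where 31.8% of all genes passed. An unadjusted limma p under 0.05 was found for 6 of 11, against 36.9% of all genes and 46.7% at that level. The falls were UBA1, the main E1 enzyme (-0.34, SE 0.04, adjusted p = 0.00358), and UBE2J2 (-0.16). Of 5 genes listed as relatives of the family with other names, 3 passed (60%, against 23.8% of all genes). An unadjusted limma p under 0.05 was found for 4 of 5 (80%), against 36.9% of all genes. Of the 5, 4 had a mean of at least 5, where 31.8% of all genes passed and 46.7% had an unadjusted p under 0.05. RNF135, which like TRIM25 acts on RIG-I, fell by 0.34 (SE 0.05, adjusted p = 0.00413). PML fell by 0.25 (SE 0.05, adjusted p = 0.0200), and MID2 rose by 0.23 (SE 0.06, adjusted p = 0.0475). MID1 and MEFV did not pass. With poly-A control scaling the change of all these genes rises by 0.33, so that falls smaller than this turn above 0.

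The members with a COS box, which binds microtubules, held 1 call among 8 (12.5%, where 23.8% of all genes passed). TRIM67, known from neurons, read 5.67, 5.85 and 5.91 on the arrays labelled shControl and 5.36, 5.27 and 5.48 on those labelled shTIGD1 and fell by 0.45 (SE 0.08, limma adjusted p = 0.0102). Its dimmer probe set changed by -0.16 and did not pass. The remaining COS-box genes lay between -0.15 (TRIM36) and 0.03 (TRIM9). Of 6 members with no further named domain, 0 passed, where 23.8% of all genes passed. An unadjusted limma p under 0.05 was found for 1 of 6 (16.7%), against 36.9% of all genes. TRIM31 was the highest of the 6 at 0.11 (adjusted p = 0.0934) and TRIM40 the lowest at -0.19 (adjusted p = 0.139).

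**Figure D5:**
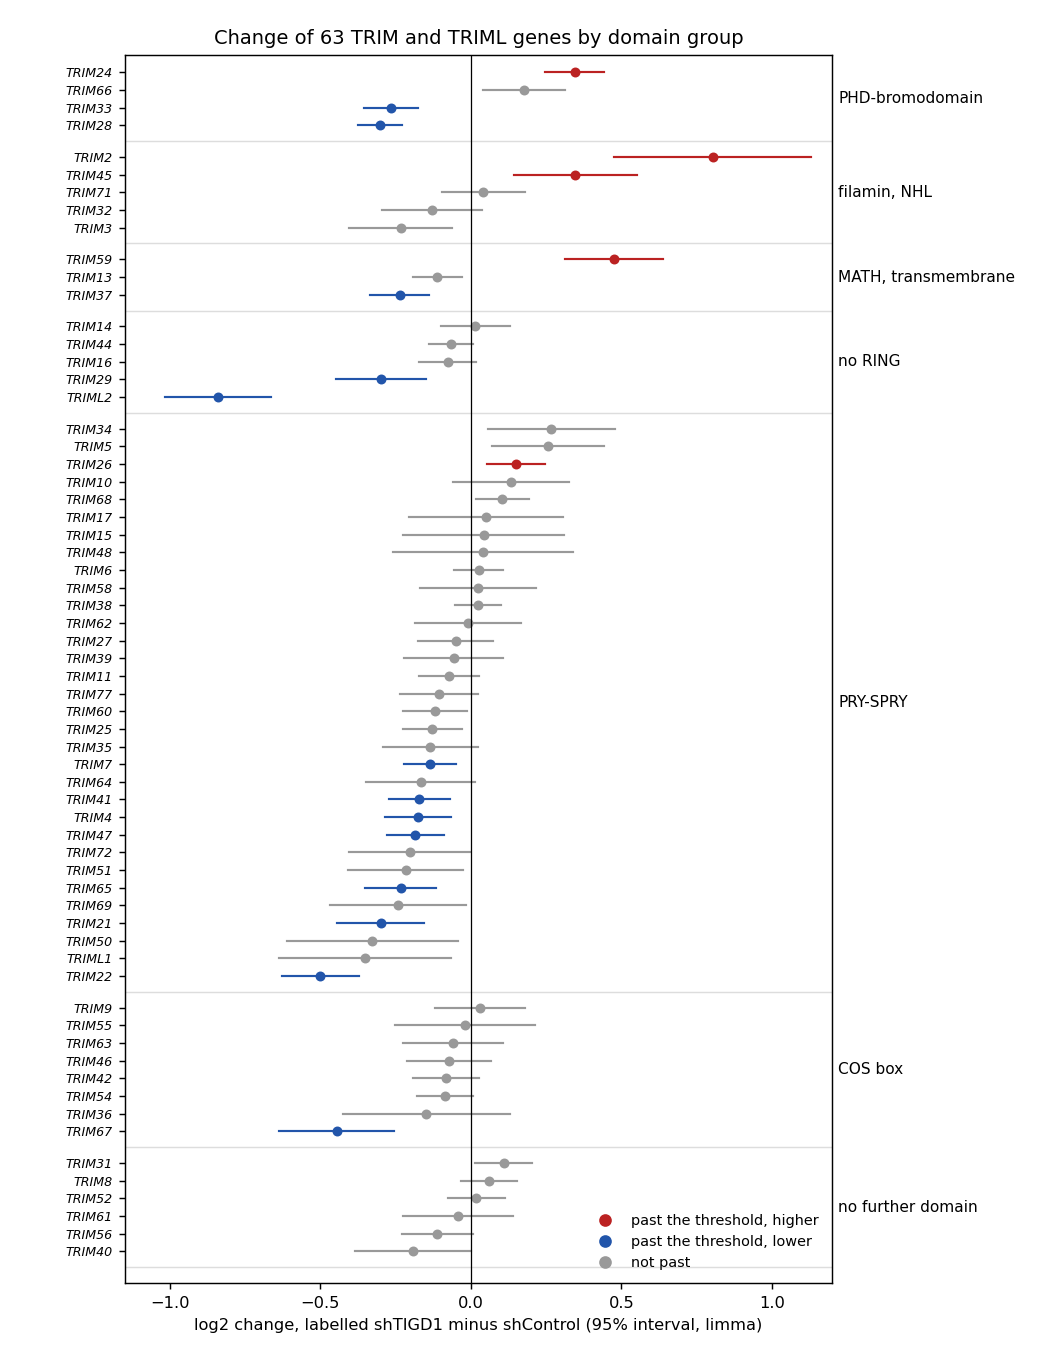
Log2 change of each of the 63 genes (x axis, arrays labelled shTIGD1 minus shControl, with the 95% interval from limma), grouped by domain, in red or blue where past the threshold. Red and blue points occur together in 3 of the 7 groups (PHD-bromodomain, MATH or transmembrane, PRY-SPRY), and TRIM2 and TRIML2 have the widest distance from 0; blue points closer to 0 than -0.33 turn above 0 under poly-A control scaling.

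The dim members gave no calls. Of the 63 genes, 17 had a mean under 5, a level at which most markers of other cell types lay. Of these 17, 0 passed, near the 5.2% of all genes with a mean under 5 that passed. An unadjusted limma p under 0.05 was found for 5 of the 17 (29.4%), against 14% of all genes at that level. The 4 members known for striated muscle (TRIM54, TRIM55, TRIM63 and TRIM72) had 0 calls and 3 means under 5. Of all genes 23.8% passed, and 5.2% of those with a mean under 5. Of the 4, 1 had an unadjusted limma p under 0.05 (25%), against 36.9% of all genes and 14% of those with a mean under 5. The lowest change among these 4 was that of TRIM72, a membrane repair protein (-0.20). The 4 measured copies known from testis or early embryo (TRIM48, TRIM51, TRIM64 and TRIM77) had means between 3.02 and 4.13 and 0 calls. Of these copies, 1 had an unadjusted limma p under 0.05 (25%, against 14% of all genes with a mean under 5). Probes of these copies can be shared between near-identical genes, and their signals are uncertain for that reason too.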

How the data were processed

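Per the labels' protocols, biotin-labelled RNA from a 3′ in vitro transcription kit was hybridized to 1-colour arrays. The authors deposited log2 signals for each probe set. The submitters' processing notes name GCOS and RMA, with no version given in the sources used here. The base of the logarithm is not stated and was inferred from the size of the signals. RMA makes the arrays' distributions alike, so a shift common to most genes is removed. Scan dates were not used, so batches were not tested.

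Of 49395 probe sets, 102 controls were left out, 45336 had 1 symbol (a symbol repeated for a probe set counted once), 1275 several and 2682 none. Members and lists were chosen with earlier results of these data known. The tests were lmFit and eBayes (limma 3.58.1, R 4.3.3), two-sided, 3 arrays against 3, with Benjamini-Hochberg adjustment over 18265 genes. A mean under 5 is called near background. The text gives in full members past the threshold by at least 1.2-fold, and others by list; of other genes, up to 4 per list with the largest differences past the threshold, and RIGI, MID1 and MEFV besides. TRIM32, TRIM62, TRIM13 and the background controls were described after their values were seen. The test was checked on simulated data. No arrays were copies: at most 184 probe sets had equal values. Neighbours are RefSeq protein-coding genes without read-through genes.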

Additional observations from a re-analysis of the deposited data

How the results depend on the processing

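Of 18 members past the threshold, 10 passed in every fit that left out 1 array. The count was 12 to 16 of 63 members, where 15% to 18.6% of all genes passed (2742 to 3389). In these fits the family median was -0.096 to -0.065 and the TIGD1 change -0.09 to -0.03. The second brightest probe set gave 11 of 63 members, where 19.4% of all genes passed. Limma's treat against 1.2-fold gave 1 (TRIML2), where 1.43% of all genes passed (262). Single probe sets gave 35 of 167, where 22.5% of all probe sets passed (10215). The labels do not say whether array numbers pair the arrays. Deviations of same-number arrays from their group means correlated at -0.03, -0.13 and -0.09, which cannot exclude pairing, since paired arrays need not share deviations. With the replicate block 13 members and 2388 genes (13.1% of all) passed. The family median was -0.059 when probe sets were averaged per gene and -0.057 over single probe sets. Hybridization control scaling gave 9099 genes (49.8% of all, 8738 higher), a family median of 0.13 and TIGD1 past the threshold at 0.15. Poly-A control scaling gave 47 members and 14084 genes (77.1% of all, 13965 higher), a family median of 0.26 and TIGD1 at 0.28 (also past the threshold). The scaling itself adds a constant to every change. Members whose change crossed 0 are named where they were past the threshold before or after. The second brightest probe set changed the sign of 11 members, of which these were TRIM33 (0.057) and TRIM37 (0.044). Hybridization control scaling changed the sign of 27 members, among them TRIM11 and TRIM44 to 0.14, TRIM4 to 0.033, TRIM41 to 0.037, TRIM47 to 0.023 and TRIM7 to 0.071. Poly-A control scaling changed the sign of 37, among them TRIM11, TRIM16 and TRIM46 to 0.26, TRIM13, TRIM56 to 0.22, TRIM21 to 0.034, TRIM28 to 0.031, TRIM29 to 0.035, TRIM7, TRIM25, TRIM32 and TRIM35 to 0.20, TRIM27 and TRIM39 to 0.28, TRIM33 to 0.068, TRIM37 and TRIM65 to 0.10, TRIM4 and TRIM41 to 0.16, TRIM42, TRIM54 to 0.25, TRIM44 and TRIM63 to 0.27, TRIM47 to 0.15, TRIM55 to 0.31, TRIM60 to 0.21, TRIM61 to 0.29, TRIM62 to 0.32 and TRIM77 to 0.23. Repeated quantile normalization changed the sign of 3 members near 0 (TRIM14, TRIM55 and TRIM62, none past the threshold). Equal array medians, array weights, trend and robust settings and filters on dim genes changed none, and these settings moved no total count of calls by over 1.5 times. With a filter at a mean of 5, 26 of 46 members passed (9 higher and 17 lower), where 40.8% of the genes kept did. A filter at a mean of 6 gave 21 of 37, where 49.3% did. With trend and robust settings 26 of 63 members passed (6 higher and 20 lower), where 31.8% of all genes did. The differences between these shares were not tested. Signals near background limit what could be seen in the 17 dim members.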

Other observations

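Some TRIM genes, such as TRIM73, are read only by probe sets that the platform's table assigns to several genes. Others, such as TRIM34 and TRIM16, also have a probe set of their own. The 11 shared probe sets that name a TRIM gene were left out of the counts. The one with the largest difference, for TRIM73, STAG3L3 and STAG3L1, read 5.97, 6.13 and 6.21 on the arrays labelled shControl and 5.65, 5.48 and 5.61 on those labelled shTIGD1 (-0.52). A probe set for TRIM73 and TRIM74 differed by -0.24. The 2 probe sets for TRIM34 and its read-through with TRIM6 differed by 0.21 and 0.12, the side of 0 on which TRIM34's own probe set lay. The probe set for TRIM16 and TRIM16L read 10.99, 10.90 and 10.90 against 10.89, 10.90 and 10.87 (-0.04). These values were not tested, since the gene behind each signal is not known.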
